A study of Homo sapiens with 6 samples.

Results

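The genes described here are 9 long noncoding RNAs (lncRNAs) that host small nucleolar RNAs (snoRNAs): GAS5, SNHG1, SNHG5, SNHG6, SNHG7, SNHG8, SNHG12, SNHG15 and SNHG16. They were chosen by name, with earlier results of these data known, and all 9 were found among the 40173 genes of the count table. RNA-Seq was carried out on A549, an established human lung adenocarcinoma cell line, a day after transfection with an siRNA against the lncRNA FAM83H-AS1 (silenced, 3 libraries) or with a scrambled siRNA as negative control (control, 3 libraries). Apart from the siRNA, the labels give both groups the same cells and handling, and the sources used here do not state which of the study's siRNAs the sequenced silenced cells received. The labels do not say whether the 3 libraries of a group came from separate cultures, so that every p-value measures only the spread between these libraries, which may be technical.

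A snoRNA host gene carries snoRNAs inside its introns. Splicing releases the intron, the snoRNA is trimmed out of it and joins a ribonucleoprotein that guides ribose methylation (box C/D snoRNAs, named SNORD) or pseudouridylation (box H/ACA snoRNAs, named SNORA) of ribosomal RNA and other RNAs. The spliced exons are left as an lncRNA. Many of these exon RNAs start with an oligopyrimidine tract, the 5′ TOP element that ties translation to growth signals, and many are degraded by nonsense-mediated decay (NMD) when ribosomes reach them. GAS5, the growth arrest-specific transcript, accumulates in arrested cells and can bind the glucocorticoid receptor as a decoy, and several SNHG transcripts have been studied as RNAs that are raised in tumors.

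The first bases of annotated transcripts are shown because a 5′ TOP element has been described for several of these hosts, as for ribosomal protein genes. For SNHG1, SNHG5, SNHG7 and SNHG12 the transcript was the longest one that starts at the RefSeq start of the gene. For GAS5, SNHG8 and SNHG16 no transcript starts there, and the one with the longest pyrimidine run was taken. The transcripts and their positions are from GENCODE 29 on GRCh38, in which GAS5 is at chr1:173867960-173867989 (minus strand), SNHG1 at chr11:62855856-62855885 (minus), SNHG5 at chr6:85678704-85678733 (minus), SNHG7 at chr9:136728155-136728184 (minus), SNHG8 at chr4:118278758-118278787 (plus), SNHG12 at chr1:28581844-28581873 (minus) and SNHG16 at chr17:76557769-76557798 (plus). Each sequence is exonic in the transcript shown and is written 5′ to 3′ on the strand of the gene. The unbroken run of C and T from its first base is in capitals. The GAS5 and SNHG1 transcripts shown have 1698 and 2768 bases. All exons of their transcripts without a retained intron make up 1614 and 1582 bases. Both transcripts shown are therefore annotated with a retained intron and are not fully spliced forms. SNHG6 and SNHG15 are not shown.
GAS5: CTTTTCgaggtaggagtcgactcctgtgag
SNHG1: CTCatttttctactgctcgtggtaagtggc
SNHG5: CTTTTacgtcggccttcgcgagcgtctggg
SNHG7: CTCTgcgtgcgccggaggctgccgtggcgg
SNHG8: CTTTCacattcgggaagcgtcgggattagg
SNHG12: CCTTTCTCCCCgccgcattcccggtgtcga
SNHG16: CTTTTCgaggtcggccgcgtggctggaaga

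The run was 11 bases long in SNHG12 and between 3 and 6 bases in the other transcripts shown. In GAS5, SNHG8 and SNHG16 its length was set by the choice of transcript, since the longest run was taken. The GAS5 and SNHG16 transcripts shared their first 11 bases, and both were chosen in that way. Over all annotated transcripts of the 9 members, 20 of 126 (15.9%) started with a C followed by at least 4 further C or T, and 7 members had at least 1 such transcript. The share was 2.5% (712 of 28476) among all transcripts of lncRNA genes and 2.59% (3916 of 151222) among those of protein-coding genes. These shares are per transcript, and the share of genes with at least 1 such transcript was not counted. Transcripts of the same gene can share a start, so that they are not separate observations. In GAS5 this held for 6 of 29 transcripts, in SNHG6 for 3 of 5, in SNHG12 for 4 of 17 and in SNHG16 for 2 of 8, whereas no annotated transcript of SNHG7 or SNHG15 had such a start. An annotated start is a description of the gene model, and the positions where transcription starts in A549 cells were not measured here.

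Library totals ran from 9738291 to 17742643 counts, and 21021 to 22202 genes were detected per library. The members were counted at 38 to 2528 reads per library. A549 was labelled as lung adenocarcinoma, and of 8 epithelial markers KRT8, KRT18 and KRT7 were abundant (909 to 2080 counts per 1000000 counts of the library, CPM, over the 6 libraries), while CDH1 (0.691 to 1.66 CPM) and KRT19 (0.488 to 1.21 CPM) were near the floor. The summed level of the epithelial markers was 4542 to 4844 CPM in control and 3626 to 3673 CPM in silenced libraries, and 3 of the 8 passed the test as lower. Of 12 markers of other cell types, CD3E and HBB were at 0 in all libraries and 1 passed as higher, CD68, a lysosomal protein, whose level took the summed level from 164.7 to 188.1 CPM in control to between 268.7 and 308.6 CPM in silenced libraries. Over all genes tested, 8.27% passed as lower and 8.75% as higher. The part of either list of markers in the results on the members was not tested. Control replicate 3, the deepest library, stood apart in its snoRNA rows, which held 0.302% of its counts against 0.121% to 0.164% in the other 5 libraries.

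The targeted RNA was checked first. FAM83H-AS1 measured 14.5, 16.0 and 17.3 CPM in the control libraries and 4.59, 4.44 and 5.58 CPM in the silenced ones. The groups did not overlap. The mean fell to 30.6% of control, a log2 fold change of -1.70 (SE 0.148, adjusted p = 7.99e-05, edgeR quasi-likelihood test with Benjamini-Hochberg adjustment over 15250 genes).

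Silencing FAM83H-AS1 was followed by lower levels of SNHG6 and SNHG16, and no member passed the test as higher. The levels of the other 7 members did not pass the test. The call was an adjusted p under 0.05 over all 15250 genes tested, of which 8.27% passed as lower and 8.75% as higher, and 2 of 9 members were lower and 0 higher. No member passed with a change of more than 2-fold, against 2.14% of all genes in either direction and 0.997% lower. The 2 calls among 9 genes are a small count beside a background of 8.27%, and the share itself was not tested. The fitted change was below 0 in 6 of 9 members and in 7639 of all 15250 genes. The median log2 fold change was -0.13 in the members beside -0.0007 over all genes. In bulk RNA, fewer cells that carry a transcript and less of it in each cell cannot be told apart. For a single gene, an exact permutation test of 3 against 3 libraries cannot go below p = 0.1.

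**Figure D1:**
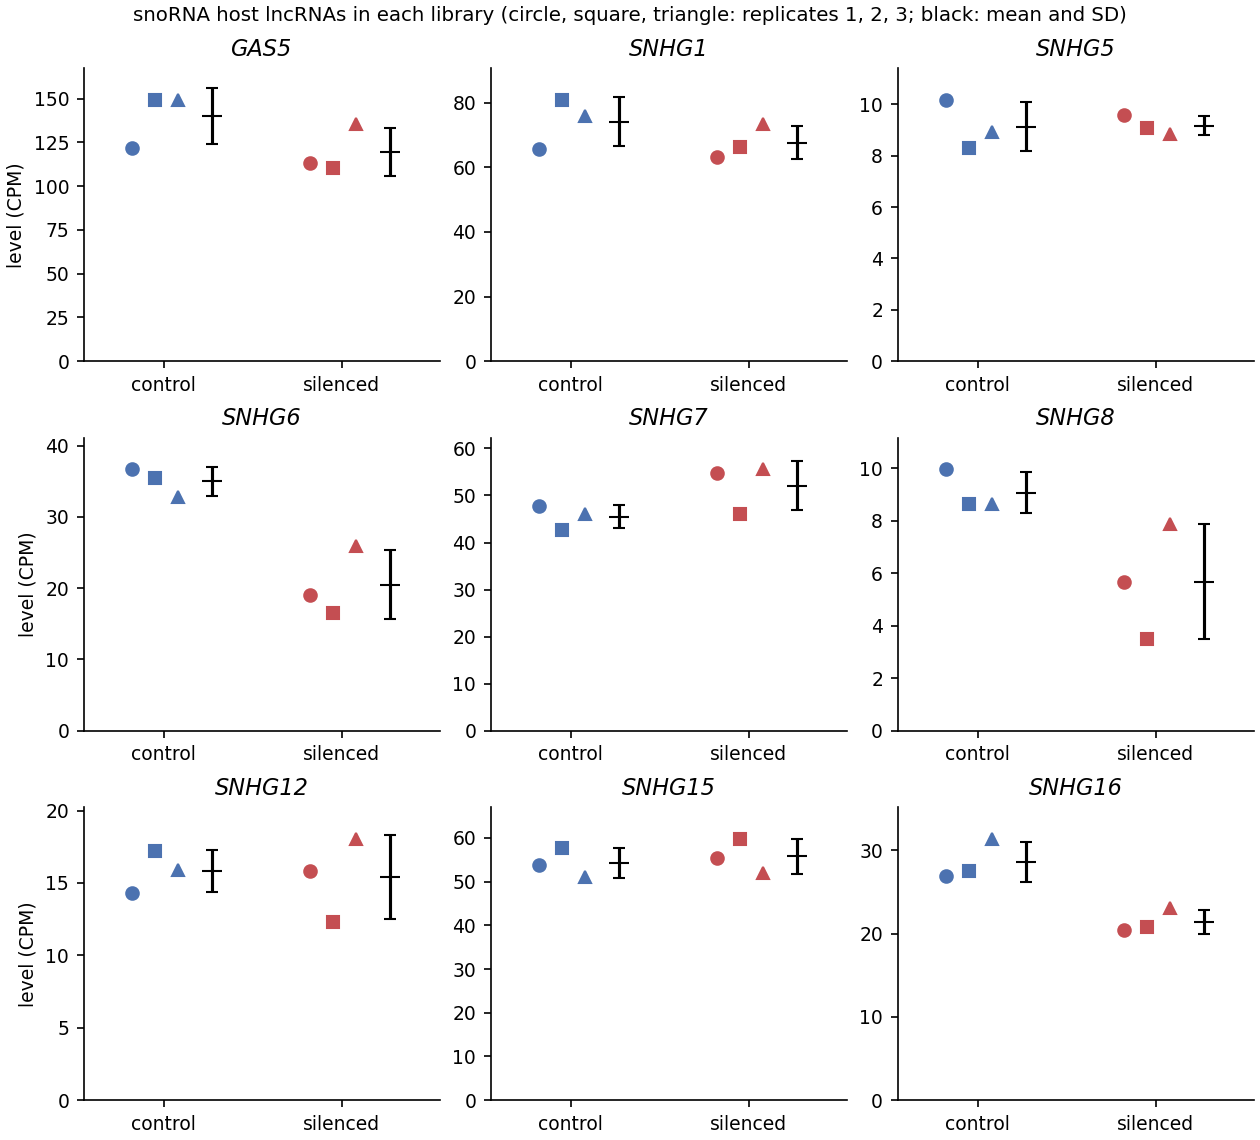
Level of the 9 snoRNA host lncRNAs in each library, in counts per 1000000 (CPM), with control libraries in blue, silenced libraries in red, and the mean and SD (n = 3) in black. The control and silenced points are apart in SNHG6, SNHG8 and SNHG16 and overlap in the other 6 members.

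SNHG6, host of the box C/D snoRNA SNORD87, showed the greatest fitted change of the members. Its control libraries held 36.7, 35.4 and 32.8 CPM and its silenced libraries 19.0, 16.6 and 25.9 CPM. The groups did not overlap, and silenced replicate 3 was the closest to the controls. The mean went from 35.0 ± 1.98 to 20.5 ± 4.87 CPM (SD, n = 3), 58.6% of control, with a log2 fold change of -0.76 (SE 0.143, adjusted p = 0.00599). The call held in each of 13 other fits, with adjusted p between 1.09e-09 and 0.0335. SNHG6 (ENSG00000245910.8) lies at chr8:66921684-66926398 on the minus strand of GRCh38, and 365 of its exonic bases overlap MCMDC2, a gene on the opposite strand. Whether reads were counted by strand is not given in the sources used here, so that reads of overlapping genes cannot be told apart, but MCMDC2 itself had 0 or 1 count in each library.

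SNHG16, host of the SNORD1 snoRNAs, was the other member called lower. It measured 26.9, 27.6 and 31.4 CPM in control and 20.4, 20.8 and 23.0 CPM in silenced libraries. The silenced libraries were close to each other and all lay below the controls. The mean went from 28.6 ± 2.42 to 21.4 ± 1.42 CPM (SD, n = 3), 74.8% of control, with a log2 fold change of -0.42 (SE 0.101, adjusted p = 0.0174). The call was lost without control replicate 3 (log2 fold change -0.35, adjusted p = 0.0767) and without silenced replicate 1 (-0.39, adjusted p = 0.0773). SNHG16 (ENSG00000163597.14) lies at chr17:76557766-76565348 on the plus strand, and 1639 of its exonic bases overlap AC015802.6 on the opposite strand, which is not analysed here.

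SNHG8, host of the box H/ACA snoRNA SNORA24, had 9.97, 8.64 and 8.63 CPM in control and 5.66, 3.51 and 7.88 CPM in silenced libraries. The groups did not overlap, although silenced replicate 3 came near the lowest controls. In all, 3 of 9 members had silenced libraries that were all below the controls, against 17.5% of all genes tested, and none had them all above, against 19.1%. The mean of SNHG8 was 9.08 ± 0.773 CPM in control and 5.69 ± 2.18 CPM in silenced cells (SD, n = 3), and its log2 fold change of -0.65 (SE 0.24) did not pass (adjusted p = 0.085). It rested on 38 to 146 reads a library, the fewest of the members. SNHG8 passed in 3 of 13 other fits, among them the fit without silenced replicate 3 (-0.98, adjusted p = 0.0225) and the fit of every gene with at least 1 count (-0.66, adjusted p = 0.00653). Without silenced replicate 2 its change was smaller (-0.41, adjusted p = 0.197). SNHG8 (ENSG00000269893.6) lies at chr4:118278709-118279823 on the plus strand.

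GAS5, host of 10 box C/D snoRNAs, was the most abundant member and made up 34.0% of the summed CPM of the 9 in control cells. Its level was 122, 149.2 and 149.5 CPM in control and 113, 110.3 and 136 CPM in silenced libraries. The groups overlapped, since silenced replicate 3 lay above control replicate 1. The mean was 140.1 ± 16.0 CPM in control and 119.8 ± 13.8 CPM in silenced cells (SD, n = 3), and the log2 fold change of -0.23 (SE 0.104) did not pass (adjusted p = 0.157). In 13 other fits it ranged from -0.33 to -0.17 and passed in none. GAS5 (ENSG00000234741.7) lies at chr1:173863900-173868882 on the minus strand, where 19 of its 29 annotated transcripts retain an intron.

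SNHG1, host of 8 box C/D snoRNAs, stood at 65.8, 80.9 and 75.7 CPM in control and 63.2, 66.4 and 73.3 CPM in silenced libraries. The 2 groups overlapped, with control replicate 1 below 2 of the silenced libraries. The mean was 74.2 ± 7.69 CPM in control and 67.6 ± 5.17 CPM in silenced cells (SD, n = 3), with a log2 fold change of -0.13 (SE 0.0938, adjusted p = 0.361). SNHG1 (ENSG00000255717.6) lies at chr11:62851988-62855914 on the minus strand, 188 bases from SLC3A2, which runs the other way and encodes the heavy chain of amino acid transporters. SLC3A2 measured 449.4 ± 38.8 CPM in control and 479.4 ± 20.0 CPM in silenced cells (SD, n = 3) and did not pass either (log2 fold change 0.093, adjusted p = 0.446).

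SNHG7, host of SNORA17 and SNORA43, had the highest fitted change of the 9. Its control libraries held 47.7, 42.8 and 46.1 CPM and its silenced libraries 54.7, 46.1 and 55.6 CPM. Silenced replicates 1 and 3 lay above all controls, and silenced replicate 2 lay among them. The log2 fold change was 0.20 (SE 0.0917, adjusted p = 0.164), and it passed in none of 13 other fits. In GENCODE 29, SNHG7 (ENSG00000233016.6) lies at chr9:136721366-136728184 on the minus strand and shares 1094 exonic bases with FAM69B on the opposite strand, which was counted at 3.12 ± 0.410 CPM in control and 2.72 ± 0.432 CPM in silenced cells (SD, n = 3).

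SNHG5, SNHG12 and SNHG15 showed changes close to 0. SNHG5, host of SNORD50A and SNORD50B, had 10.2, 8.29 and 8.93 CPM in control and 9.57, 9.06 and 8.85 CPM in silenced libraries, with a log2 fold change of 0.007 (SE 0.141, adjusted p = 0.982). SNHG12, host of SNORD99 and 3 box H/ACA snoRNAs, had 14.3, 17.2 and 15.9 CPM in control and 15.8, 12.3 and 18.1 CPM in silenced libraries, with a log2 fold change of -0.035 (SE 0.146, adjusted p = 0.9). SNHG15, host of SNORA9, had 53.8, 57.8 and 51.0 CPM in control and 55.5, 59.8 and 52.0 CPM in silenced libraries, with a log2 fold change of 0.041 (SE 0.0839, adjusted p = 0.776). In each of these members the silenced range crossed the control range, and the sign of the fitted change turned when single libraries were left out. The standard error was smallest for SNHG15, so that its change was measured with more precision than that of SNHG5, which had 96 to 151 reads a library. They lie on the minus strand at chr6:85660950-85678748 (SNHG5), chr1:28578538-28583132 (SNHG12) and chr7:44983023-44986961 (SNHG15).

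Between genes, levels were compared as CPM per kilobase of exon, which leaves out transcripts annotated as retaining an intron. In control cells GAS5 was highest at 86.8 ± 9.88, followed by SNHG1 at 46.9 ± 4.86 and SNHG6 at 35.9 ± 2.04 CPM per kilobase (SD, n = 3). SNHG15 stood at 14.9 ± 0.932, SNHG7 at 10.5 ± 0.58 and SNHG8 at 9.84 ± 0.837 CPM per kilobase. SNHG16 at 7.21 ± 0.608, SNHG12 at 6.20 ± 0.57 and SNHG5 at 4.12 ± 0.434 CPM per kilobase were the lowest. Neighbours in this order differed by less than the sum of their SDs for SNHG7 and SNHG8 and for SNHG16 and SNHG12. With the exons of all transcripts counted, SNHG6 (28.0 CPM per kilobase) came above SNHG1 (19.7), while GAS5 stayed highest at 38.6 CPM per kilobase. In silenced cells SNHG6 measured 21.1 ± 5.0 and SNHG8 6.16 ± 2.36 CPM per kilobase.

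The summed level of the 9 members was 387.1, 427.8 and 420.0 CPM in the control libraries and 357.2, 344.8 and 400.2 CPM in the silenced ones. The groups overlapped, with silenced replicate 3 above control replicate 1. After the values were seen, it was counted how often the silenced libraries lay in the order replicate 3, 1, 2 from high to low. This order was found in 5 of 9 members (GAS5, SNHG6, SNHG7, SNHG8 and SNHG12) and in 20.9% of all genes tested, and FAM83H-AS1 had it too. Among 12122 genes that averaged 50 counts or more, the genes whose profile over the 6 libraries was nearest to the mean profile of the members were ARF5, RING1, HERC2P2, OGFOD2 and DERL2. Their root mean square difference from it was 0.0265 to 0.031 on the log2 scale. The mean profile does not stand for each member. In silenced replicate 2 it was at -0.281, while the members ran from -0.992 (SNHG8) to 0.124 (SNHG15), as log2 levels centred on each gene's mean.

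**Figure D2:**
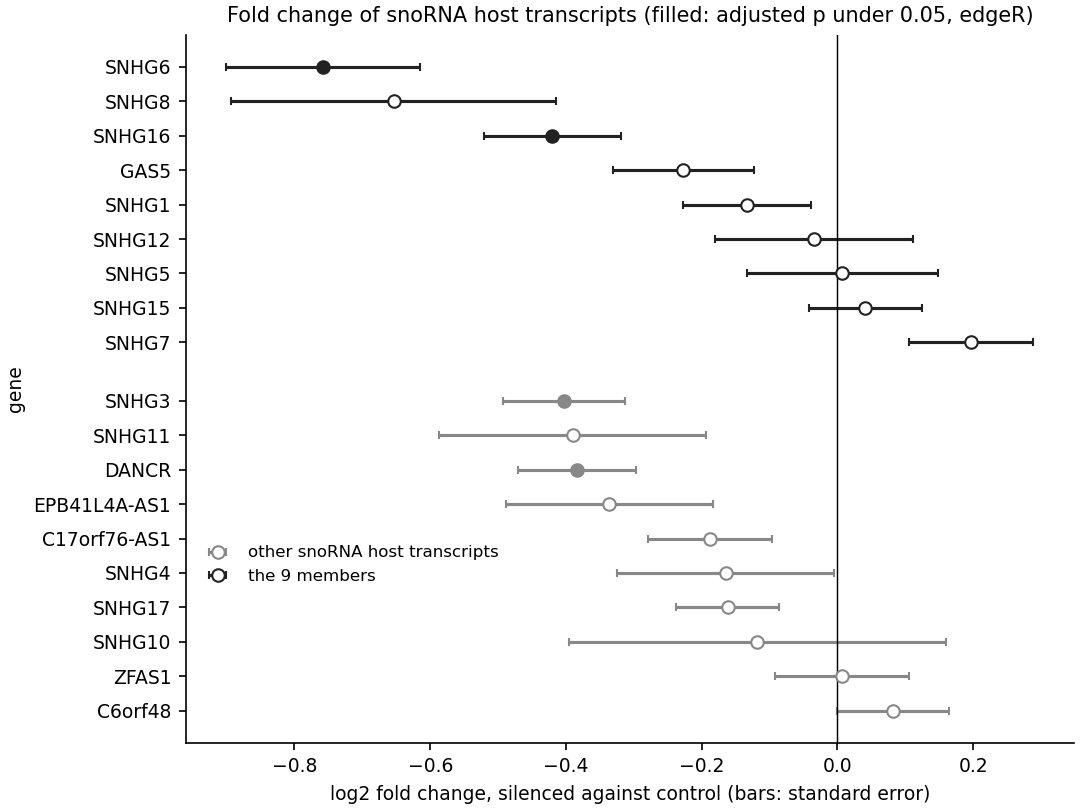
Fitted log2 fold change, silenced against control, with its standard error (horizontal axis) for the 9 members (black) and 10 other snoRNA host transcripts that were tested (grey). Filled points had an adjusted p under 0.05 in the edgeR test, and the 4 filled points (SNHG6, SNHG16, SNHG3 and DANCR) all lie below 0.

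The remaining snoRNA host lncRNAs were listed next to the members. Of 25 listed, 14 were in the table, 10 were tested, 2 passed as lower and 0 as higher. The shares over all genes tested were 8.27% lower and 8.75% higher. The median log2 fold change of the 10 was -0.18. SNHG3, host of SNORA73, held 32.8, 38.2 and 37.4 CPM in control and 27.3, 27.0 and 27.7 CPM in silenced libraries (log2 fold change -0.40, SE 0.0895, adjusted p = 0.0123). DANCR, host of SNORA26, held 32.7, 31.4 and 33.8 CPM in control and 25.9, 25.4 and 23.9 CPM in silenced libraries (log2 fold change -0.38, SE 0.0865, adjusted p = 0.0133). In both the silenced libraries lay below all controls. SNHG3 lost its call without silenced replicate 1 (adjusted p = 0.052) and DANCR without control replicate 3 (adjusted p = 0.0539). ZFAS1 and C6orf48 had fitted log2 fold changes of 0.0068 and 0.082.

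The snoRNAs inside the members were read beside their hosts. Of 34 names listed, 32 were in the table and 20 passed the filter on low counts, those of GAS5, SNHG1, SNHG12 and SNHG15. The names absent from the table were SNORA17A and SNORA17B, the RefSeq entries inside SNHG7. SNORA17 and SNORA43 were in the table without a RefSeq entry, so that the list may hold the same snoRNAs under different names. All 20 were fitted below 0 and 4 passed as lower, namely SNORD76, SNORD78 and SNORD80 from GAS5 and SNORD30 from SNHG1. Of all 15250 genes tested, 7639 were fitted below 0 and 8.27% passed as lower. Control replicate 3 was the highest control library for each of the 20, at 1.45 to 9.3 times the mean of the other two (median 2.6). The median log2 fold change was -1.14 with all libraries. Without control replicate 3, 19 were tested, 14 were fitted below 0, 0 passed and the median was -0.47. The filter asked for a minimum level in at least 3 libraries, so that a single high library was not enough. The 3 controls alone could meet it, and for a row tested only through them a change below 0 is no separate result. SNORD99 had 0.925, 0.950 and 3.61 CPM in control and 0.781, 0.277 and 0.818 CPM in silenced libraries. SNORA24 of SNHG8, with 70 counts in control replicate 3, did not pass. SNORD99 passed with all 6 libraries but not without control replicate 3. The 20 were picked by their counts and do not stand for all hosted snoRNAs.

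SNORD76, a box C/D snoRNA of GAS5, shows the pattern. It had 5.76, 6.74 and 24.8 CPM in control and 3.61, 2.77 and 5.72 CPM in silenced libraries. Control replicate 3 was far above the others, and the silenced libraries were below all controls. Its log2 fold change was -1.65 (adjusted p = 0.045) with all libraries and -0.61 (adjusted p = 0.177) without control replicate 3. SNORD78, whose fitted change without that library was the greatest of the 19, had 1.85, 2.07 and 4.26 CPM in control and 1.27, 1.11 and 0.818 CPM in silenced libraries. Its log2 fold change was -1.41 (adjusted p = 0.0283) with all libraries and -0.90 (adjusted p = 0.128) without control replicate 3. SNORD30 of SNHG1 went from 2.57, 3.20 and 11.4 CPM to 1.66, 1.11 and 2.23 CPM, with a log2 fold change of -1.81 (adjusted p = 0.0382) that became -0.77 (adjusted p = 0.163) without that library. SNORD80 of GAS5 had a log2 fold change of -1.32 (adjusted p = 0.0344), and -0.75 (adjusted p = 0.126) without it. Each of the 4 calls was also lost when silenced replicate 1 or 2 was left out (adjusted p between 0.0612 and 0.131).

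**Figure D3:**
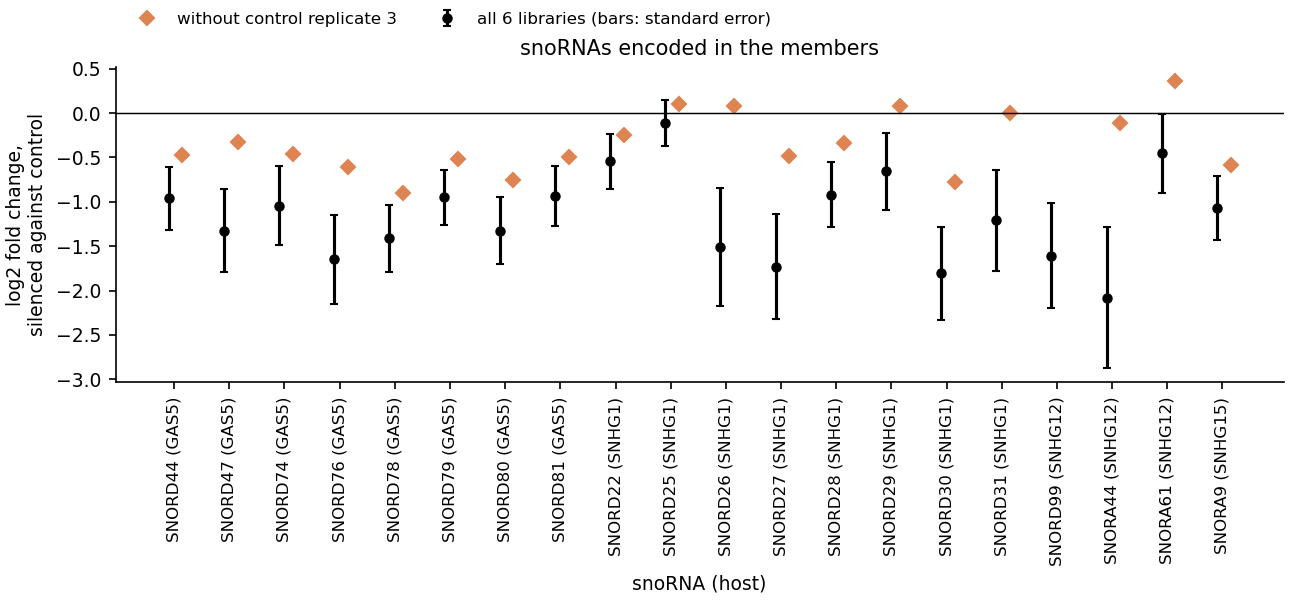
Fitted log2 fold change, silenced against control, of the 20 tested snoRNAs encoded in GAS5, SNHG1, SNHG12 and SNHG15, from all 6 libraries (black points, bars are standard errors) and without control replicate 3 (orange diamonds, 19 snoRNAs). Every black point is below 0, and the median moves from -1.14 to -0.47 when that library is left out.

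Set against the counts of the host in the same library, the snoRNAs of GAS5 gave 23.2, 20.8 and 56.1 snoRNA counts per 100 host counts in control and 17.4, 15.5 and 18.2 in silenced libraries. The silenced libraries lay below all controls. For SNHG1 the ratio was 25.6, 27.0 and 89.8 in control and 26.0, 18.8 and 29.3 in silenced libraries. For SNHG12 it was 23.0, 35.2 and 154.0 in control and 28.4, 25.6 and 30 in silenced libraries. In SNHG1 and SNHG12 the silenced libraries overlapped control replicates 1 and 2, and control replicate 3 stood above all. SNHG15, with SNORA9, gave 4.02, 6.13 and 11.8 in control and 2.99, 2.63 and 4.72 in silenced libraries. The groups overlapped there as well. For SNHG6, SNORD87 had 3, 9 and 21 counts in control and 5, 9 and 2 counts in silenced libraries, too few to test. SNORA24 of SNHG8 had 1, 7 and 70 counts in control and 0, 0 and 6 counts in silenced libraries, and it was likewise not tested.

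**Figure D4:**
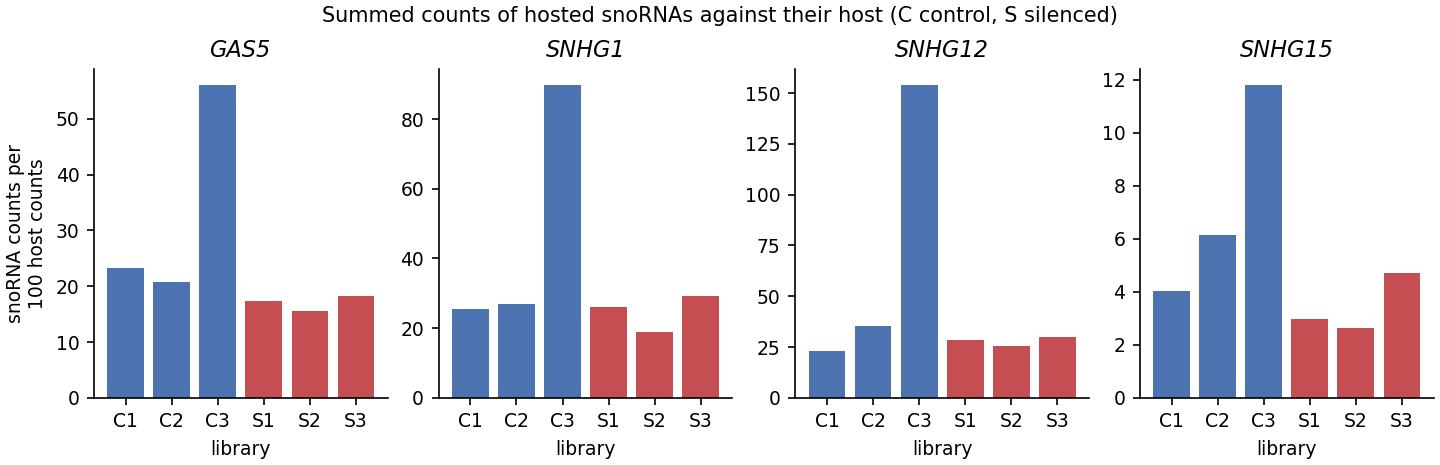
Summed counts of the hosted snoRNAs per 100 counts of their host (vertical axis) in control libraries C1 to C3 (blue) and silenced libraries S1 to S3 (red), for 4 hosts. C3 is the tallest bar in each panel, and the other 5 libraries of GAS5 lie between 15.5 and 23.2.

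Genes next to the members on the chromosome were compared as a description of each locus. Of 24 neighbours or overlapping genes, 19 were in the table and 12 were tested. Over all genes tested, 8.75% passed as higher and 8.27% as lower, and 1 tested neighbour is not reported here. MYO1G, an unconventional myosin gene beside SNHG15, went from 15.5 ± 1.70 to 25.2 ± 2.26 CPM (SD, n = 3; log2 fold change 0.70, adjusted p = 0.00313), and the call held without each library in turn. CCM2, on the other side of SNHG15, went from 59.4 ± 3.24 to 73.9 ± 2.49 CPM (0.32, adjusted p = 0.0169). WDR74, beside SNHG1, went from 52.5 ± 4.18 to 42.4 ± 1.30 CPM (-0.31, adjusted p = 0.028). CCM2 was not called without control replicate 3 (adjusted p = 0.0629) or silenced replicate 1 (0.0609) or 3 (0.0613), and WDR74 without control replicate 2 (0.0946) or silenced replicate 1 (0.0985) or 2 (0.0634). The hosts SNHG15 and SNHG1 themselves did not pass.

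Other genes of the pathway were counted by list. All lists were chosen with earlier results of these data known, so that their counts are a description. Of 23 snoRNP proteins and assembly factors tested, 6 were lower and 0 higher, with a median log2 fold change of -0.11. Over all genes tested, 8.27% were lower and 8.75% higher. The count lower was 2 without control replicate 1, control replicate 2 or silenced replicate 1, 3 without silenced replicate 3, and 3 with library size only as normalization. NOP56, a core protein of box C/D snoRNPs, held 182, 213 and 185 CPM in control and 134, 132 and 145 CPM in silenced libraries. No silenced library reached a control, and the log2 fold change was -0.50 (SE 0.082, adjusted p = 0.00305). RUVBL1, a helicase of snoRNP assembly, had a log2 fold change of -0.36 (adjusted p = 0.0122), which was lost without silenced replicate 1 (adjusted p = 0.0675). NHP2 and GAR1, proteins of box H/ACA snoRNPs, had log2 fold changes of -0.39 (adjusted p = 0.0212) and -0.45 (adjusted p = 0.035). Both lost their calls in several leave-outs, up to an adjusted p of 0.0792 for NHP2 without silenced replicate 1 and of 0.105 for GAR1 without silenced replicate 3.

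Of 34 protein-coding snoRNA hosts with a 5′ TOP, 6 were lower and 1 was higher, with a median log2 fold change of -0.16, and 29 were fitted below 0. Of all 15250 genes tested, 8.27% were lower, 8.75% were higher and 7639 were fitted below 0. The count lower was 2 without control replicate 2 or silenced replicate 1, 3 without silenced replicate 2, and 12 without silenced replicate 3 or with all genes of at least 1 count. RPL10, a ribosomal protein of the large subunit, went from 361.6 ± 25.0 to 145.0 ± 11.2 CPM (SD, n = 3; log2 fold change -1.32, adjusted p = 9.74e-06). RPS13, of the small subunit, went from 277 ± 19.5 to 215 ± 6.40 CPM (-0.36, adjusted p = 0.00822). Both calls held without each library in turn. NAP1L4 (-0.27, adjusted p = 0.018) and RPL23A (-0.37, adjusted p = 0.0242) lost theirs in several leave-outs, with an adjusted p of up to 0.0827 and 0.0902, each without silenced replicate 1. The gene that was higher was RPL7A (0.31, adjusted p = 0.0411), named after its value was seen, and its call was lost in 5 of 6 leave-outs, for example without silenced replicate 1 (adjusted p = 0.129). Ribosomal protein genes have many processed pseudogenes, and how reads with several matches were counted is not given in the sources used here.

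Among 19 factors of NMD and the exon junction complex, 3 were higher and 4 lower, beside 8.75% higher and 8.27% lower over all genes tested. The count lower was 0 without silenced replicate 1 or 2, 1 without control replicate 2 or 3, and 2 without control replicate 1, with DESeq2 or with library size only. The count higher was 1 without control replicate 1 or 2 or silenced replicate 1 or 2. PNRC2, which links UPF1 to decapping, had a log2 fold change of 0.46 (SE 0.099, adjusted p = 0.0107) that held without each library. UPF1, the helicase of NMD, had one of -0.26 (adjusted p = 0.0303), which was lost in 4 of 6 leave-outs, with an adjusted p of up to 0.118 without silenced replicate 1. Of 19 mRNAs known as NMD targets, 4 were higher and 4 lower, with a median of 0.047. DDIT3, a transcription factor of the stress response, went from 26.0 ± 4.93 to 52.9 ± 4.91 CPM (SD, n = 3; log2 fold change 1.01, adjusted p = 0.000732), and PPP1R15A (0.67, adjusted p = 0.000821) and the cell cycle inhibitor CDKN1A (0.68, adjusted p = 0.0018) rose with it. ATF4, which activates amino acid genes under stress, went from 330.3 ± 36.1 to 204 ± 1.52 CPM (-0.69, adjusted p = 0.000493).

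The glucocorticoid receptor list, also chosen with earlier results known, was read beside GAS5. Of 14 genes tested, 4 were higher and 0 lower, with a median log2 fold change of 0.16. Over all genes tested, 8.75% were higher and 8.27% lower. SGK1, a kinase induced by glucocorticoids, held 47.6, 56.5 and 54.0 CPM in control and 84.8, 91.4 and 78.4 CPM in silenced libraries, with a log2 fold change of 0.68 (SE 0.09, adjusted p = 0.000933). DUSP1, a phosphatase of MAP kinases, had a log2 fold change of 0.56 (adjusted p = 0.00476), and ERRFI1, an inhibitor of the EGF receptor, one of 0.95 (adjusted p = 0.00613). Those 3 calls held without each library in turn, while that of BIRC3 (0.35, adjusted p = 0.0105) was lost without silenced replicate 1 (adjusted p = 0.0522). GAS5 itself did not pass, and a relation between its level and these genes was not tested.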

How the data were processed

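Total RNA of A549 cells, 3 control and 3 silenced libraries, was sequenced on Ion Proton. The authors mapped and counted reads per gene with MapSplice and compared groups with DESeq; the submitters' processing notes name GRCh37. The deposited table holds raw counts, without normalization, for 40173 genes. Strand use and the treatment of reads with several matches are not given in the sources used here.

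Columns were assigned to samples by group name and replicate number. A supplementary table of the study numbers the silenced libraries in another order, so that the silenced replicate numbers here, the block and the pairing check follow the deposited table. Genes passing filterByExpr were fitted with edgeR 4.0.16 (R 4.3.3; TMM, glmQLFit, glmQLFTest, group as the only term), with Benjamini-Hochberg adjustment over all 15250 genes, and CPM used TMM library sizes (factors 0.955 to 1.02). Library totals were 9738291 to 17742643 counts. Replicate pairs differed by more than sampling noise (chi-square per degree of freedom from 4.2 to 29.7). On simulated data edgeR recovered 100 of 100 genes changed by 1 on the log2 scale and 43 of 100 changed by 0.5, with 11 false calls. The simulation gave every gene the same dispersion and changed only genes that averaged 50 reads or more. It does not give the recovery or false calls for genes with a wider spread or fewer reads.

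Alternatives were DESeq2 1.42.0, other normalizations, filters and thresholds, the replicate block and leaving out each library. The members and lists were chosen with earlier results of these data known. All 9 members were named, FAM83H-AS1, the tested hosted snoRNAs, up to 4 genes of each other list by smallest p, tested neighbours (1 is not reported here), and the 5 nearest profiles. Annotation and sequences were from GENCODE 29 (GRCh38), matched by symbol.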

Additional observations from a re-analysis of the deposited data

How the results depend on the processing

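In every alternative, 0 members passed as higher. The count of members lower was 2; it was 1 at an adjusted p under 0.01, 0 at an adjusted p under 0.05 with a fold change over 2, and 1 to 3 when a library was left out. The 1 left without control replicate 3 or silenced replicate 1 was SNHG6. The median of the members ranged from -0.21 to -0.07 in the leave-outs. The hosted snoRNAs called lower numbered 4, but 2 with DESeq2, 16 with all genes of at least 1 count, 0 at an adjusted p under 0.01, and 0 to 8 in the leave-outs. Leaving out small RNA rows gives no value for them. FAM83H-AS1 was lower in every alternative, from -1.82 to -1.64. Counts for the snoRNP, NMD and 5′ TOP lists moved too and stand beside those lists.

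The main fit did not treat libraries of the same number as pairs, and the labels do not say whether they were made together. The correlations of their deviations were 0.162, 0.19 and 0.0556, and each library correlated best with its own number. With the replicate block 3449 genes were called in place of 2595, the members lower were 3, with SNHG8 added (-0.68, adjusted p = 0.0477), and the hosted snoRNAs lower 14.

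Signs turned where the change was near 0. SNHG5 was -0.0019 with all genes of at least 1 count and -0.056 to 0.083 in the leave-outs, SNHG12 -0.17 to 0.10, SNHG15 -0.013 to 0.0895. ZFAS1 was -0.002 with all genes and -0.10 to 0.076 in the leave-outs. In the leave-outs, of which that of control replicate 3 gave the highest value, SNORD25 ranged from -0.31 to 0.099, SNORD26 from -1.93 to 0.0797, SNORD29 from -0.92 to 0.082, SNORD31 from -1.77 to 0.0038 and SNORA61 from -0.79 to 0.36. The cause was not tested. SNHG8 had 38 to 146 reads a library and an SE of 0.24, SNHG5 96 to 151 reads and an SE of 0.141; the part of depth was not tested.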
